A study of Mus musculus with 12 samples.

Results

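The interferon-induced genes with tetratricopeptide repeats (the IFIT family) and the interferon-induced gene Ifi44 were followed across 4 groups of mouse bone marrow mesenchymal stem cells (MSCs). The 6 genes were Ifit1, Ifit2, Ifit3, Ifit3b, Ifit1bl1 and Ifi44, out of 55401 genes in the deposited table, and they were found by their gene names. They were picked because earlier results on these data showed them to differ between the groups, with Ifi44 and Ifit3 standing out, so their own differences are given as a description, with no test. All 6 were in the table, and 5 of them reached 1 FPKM (fragments per kilobase of exon, scaled to the mapped reads of the library) in at least 3 of the 12 libraries, as 12016 genes did. Ifit1bl1 stayed below that level.

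The MSCs came from the bone marrow of C57BL/6 mice, were purchased, and carried no engineered allele. Each group had 3 libraries of mRNA. MSCs of the untreated group received no agent. The TGF-β1 group received transforming growth factor β1 at 5 ng/mL, which drives MSCs towards myofibroblasts. The remaining groups received the same dose of TGF-β1 together with culture supernatant of myeloid-derived suppressor cells (MDSCs), either the monocytic (M-MDSC) or the granulocytic (G-MDSC) kind. By the study's methods, MDSCs were induced from mouse bone marrow cells in culture with the cytokines GM-CSF and IL-6, and then sorted. Whether these cytokines were carried over into the supernatants is not given. No group had a supernatant without TGF-β1 or medium that no MDSC had conditioned, and the supernatants were given with TGF-β1 for a day according to the study's description of these cultures. Nothing in the labels says that the 3 libraries of a group came from separate cultures, so the p-values below measure only the spread between these libraries, which may be technical.

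IFIT proteins bind foreign RNA, among it viral RNA that lacks the methylated cap of host messages, and they hold back its translation. Their genes are among the first to be switched on when type I or type III interferon binds its receptor and a complex that holds STAT2 and IRF9 reaches the interferon-stimulated response element in their promoters. Ifi44 encodes a cytoplasmic protein induced by the same signal, which has been linked to slower cell growth and to antiviral defence.

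Ifit2, Ifit3, Ifit1bl1, Ifit3b and Ifit1 lay in that order in a cluster on chromosome 19 (GRCm38, GENCODE M21), and Ifi44 lay apart from them on chromosome 3. Ifit1 spanned chr19:34640871-34650009 on the plus strand, Ifit2 chr19:34550694-34576419 on the plus strand, Ifit3 chr19:34583531-34588731 on the plus strand, Ifit3b chr19:34607970-34613401 on the plus strand, Ifit1bl1 chr19:34592891-34601956 on the minus strand and Ifi44 chr3:151730922-151749960 on the minus strand. The main transcripts of Ifit1, Ifit3 and Ifit3b in GENCODE have 2 exons each, whereas that of Ifi44 has 8. Promoter windows of RefSeq (GRCm38.p6), which run from 250 bases before to 50 bases after a start of transcription, were found for all 6 genes, 8 windows in all. They were searched on both strands for the core of the interferon-stimulated response element, GAAANNGAAA, and for the gamma-activated site, TTCNNNGAA. The first was in a window of 4 of the 6 genes, as it was for 3.99% of the 27025 genes with a window. Counted by window, it was in 5 of the 8 and in 3.44% of all 32851. The windows of Ifit1, Ifit3 and Ifit3b held 2 cores each, which 0.225% of all windows did. The bases before the start are printed for those 3 genes because the pair of cores is what they share, 5′ to 3′ on the strand of the gene and with the cores in capitals, which read as TTTCNNTTTC here since all of them lay on the opposite strand.
Ifit1, chr19:34640639-34640870, plus strand: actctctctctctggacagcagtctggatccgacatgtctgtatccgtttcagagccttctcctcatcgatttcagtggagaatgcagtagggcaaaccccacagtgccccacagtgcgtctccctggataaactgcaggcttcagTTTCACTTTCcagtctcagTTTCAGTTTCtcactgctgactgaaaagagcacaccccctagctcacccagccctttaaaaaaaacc
Ifit3, chr19:34583279-34583528, plus strand: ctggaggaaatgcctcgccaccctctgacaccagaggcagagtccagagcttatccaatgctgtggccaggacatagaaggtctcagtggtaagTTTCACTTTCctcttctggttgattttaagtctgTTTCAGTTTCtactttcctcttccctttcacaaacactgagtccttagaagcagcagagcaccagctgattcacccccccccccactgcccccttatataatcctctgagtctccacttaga
Ifit3b, chr19:34607707-34607956, plus strand: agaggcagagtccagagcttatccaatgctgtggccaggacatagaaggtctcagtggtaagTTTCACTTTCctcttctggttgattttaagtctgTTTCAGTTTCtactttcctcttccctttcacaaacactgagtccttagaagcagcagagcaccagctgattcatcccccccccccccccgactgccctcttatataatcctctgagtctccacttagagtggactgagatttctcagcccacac

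The Ifit1 stretch stops 18 bases before the RefSeq start, because GENCODE starts the gene there, and the other 2 run up to that start. Counted from the RefSeq start, with -1 as the last base before it, the cores began at -104 and -85 in Ifit1, at -156 and -122 in Ifit3 and at -188 and -154 in Ifit3b. Shifted by 32 bases, the Ifit3 and Ifit3b stretches were the same at 188 of 218 positions (86.2%). The 2 windows of Ifit1bl1 held 1 core each. The Ifit1 window shares 245 bases with that of its neighbour Ifit1bl2, which is read in the other direction, and the same pair of cores therefore lies before both genes. Neither window of Ifit2 and not the window of Ifi44 held the core as spelled. A gamma-activated site was in 1 window of Ifit2, beginning at -241, and in 8.30% of all windows. In the Ifi44 window, the half-sites of the core (GAAA) lay 3 bases and 1 base apart instead of 2. Half-sites 1 to 3 bases apart were in 8.61% of all windows, and 1.13% held 2 or more such pairs, as the Ifi44 window did. This search was added after the Ifi44 sequence had been read. The 30 bases around them are shown because they are the closest to the core in this window, with capitals from the first to the last half-site, and 18 of the 30 lie in the first exon of the main Ifi44 transcript.
Ifi44, chr3:151749943-151749972, minus strand: tacagagTTTCAGTTTTCGTTTCccgagca

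The libraries held 73977669 to 84565450 counts each. Genes that TGF-β1 is known to raise in myofibroblasts were higher with TGF-β1 alone than without it in 6 of 6 cases (Acta2, Tagln, Col1a1, Col3a1, Ccn2 and Fn1). Of 9 surface markers of MSCs, 8 reached the filter, and Itgb1, the gene for CD29, was at a mean of 254 FPKM in untreated cells. Nt5e and Eng were lowest there, at 0.407 and 0.766 FPKM. With TGF-β1, 4 of the 8 rose and 4 fell by edgeR. Ly6a, the gene for Sca-1, was among those that fell, from 245 to 16.2 FPKM. Of 6 markers that MSCs should lack, Cd34 was at 63.1 FPKM in untreated cells, and the other 5 stayed below the filter. Markers of kidney tubules were seen in libraries with supernatant, as set out below.

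Ifi44 was the gene of the 6 that moved most with the supernatants. It was at 1.70, 1.74 and 2.48 FPKM in the untreated libraries, at 0.393, 0.413 and 0.662 FPKM with TGF-β1, at 28.7, 32.6 and 30.1 FPKM with TGF-β1 and M-MDSC supernatant, and at 20.8, 17.5 and 17.8 FPKM with TGF-β1 and G-MDSC supernatant. No 2 of the 4 groups overlapped. The order ran from TGF-β1 alone at the bottom through untreated cells and G-MDSC supernatant to M-MDSC supernatant at the top. Against TGF-β1 alone, the log2 fold change was 5.93 ± 0.23 (SE) with M-MDSC supernatant and 5.22 ± 0.23 with that of G-MDSCs. Both supernatants took Ifi44 well above the untreated level, with log2 fold changes of 3.98 ± 0.21 and 3.27 ± 0.20 against untreated cells, or 15.4 and 9.47 times the untreated mean FPKM. Between the supernatants, M-MDSC was higher by 0.71 ± 0.19 on the log2 scale. In bulk RNA of this kind, a difference in the number of cells that make a transcript and a difference in the amount per cell cannot be told apart.

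**Figure D1:**
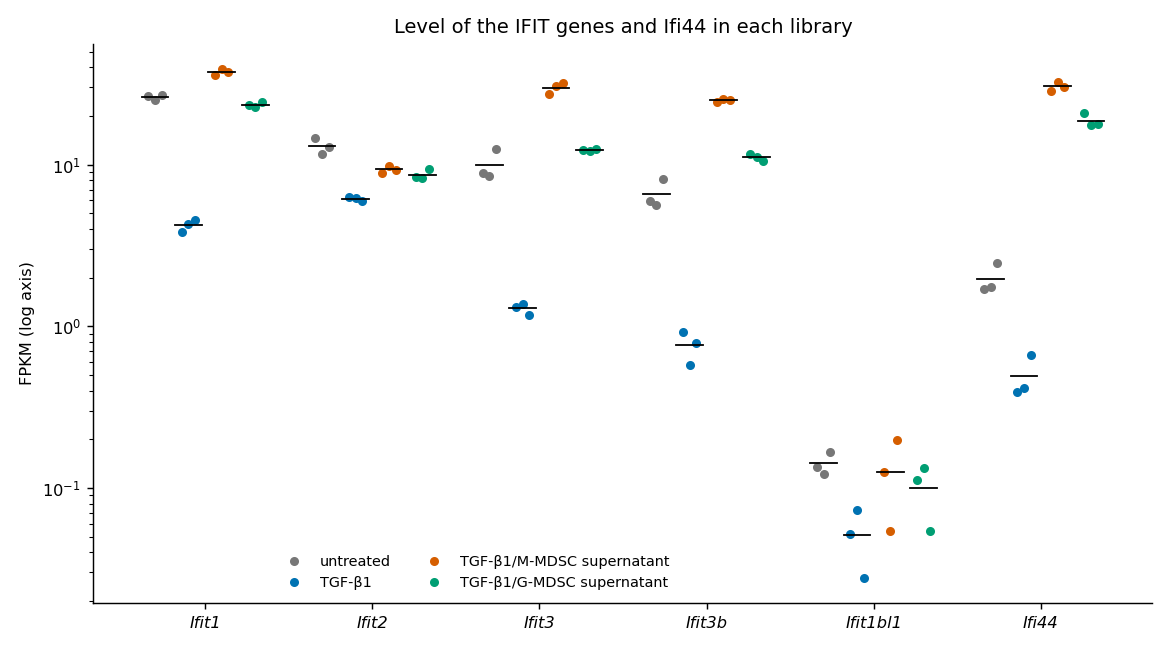
FPKM of each gene on a log axis in the 12 libraries, with a point for each library, a black bar for the mean of 3 and a colour for each group. TGF-β1 alone has the lowest mean of every gene, and Ifi44 rises from a mean of 0.489 FPKM there to 30.5 with M-MDSC supernatant.

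Ifit3, a partner that stabilises and directs other IFIT proteins, was the second gene that stood out. Its level was 8.88, 8.51 and 12.5 FPKM in untreated cells, 1.32, 1.38 and 1.18 FPKM with TGF-β1, 27.3, 30.5 and 31.9 FPKM with M-MDSC supernatant and 12.3, 12.1 and 12.5 FPKM with G-MDSC supernatant. The libraries of M-MDSC supernatant were all above the others, and those of TGF-β1 alone were all below them. The libraries of G-MDSC supernatant overlapped those of untreated cells, since untreated replicate 3 was at 12.5 FPKM. Against TGF-β1 alone, the log2 fold change was 4.50 ± 0.15 with M-MDSC and 3.22 ± 0.15 with G-MDSC supernatant. The M-MDSC libraries were higher than the G-MDSC ones by 1.28 ± 0.13 on the log2 scale, or 2.43 times. The Ifit3b gap given below lay within the SE of this one, and both were wider than the gaps of Ifi44, Ifit1 and Ifit2.

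Ifit3b, a second copy of Ifit3 in the same cluster, followed the same course. It was at 6.00, 5.66 and 8.16 FPKM in untreated cells, 0.920, 0.580 and 0.789 FPKM with TGF-β1, 24.4, 25.4 and 25.2 FPKM with M-MDSC supernatant and 11.6, 11.2 and 10.5 FPKM with G-MDSC supernatant. No 2 groups overlapped, and here G-MDSC supernatant also lay above untreated cells. The log2 fold change was 5.00 ± 0.19 with M-MDSC and 3.83 ± 0.18 with G-MDSC supernatant against TGF-β1 alone, and 1.18 ± 0.16 between the supernatants. The 2 copies share part of their reads. Their main transcripts were the same at 98.0% of 1697 aligned bases. Of the stretches of 150 bases (the read length), 296 occur in both, which is 18.5% of the 1596 in Ifit3 and 16.0% of the 1851 in Ifit3b, and the others differ between the copies. How reads that fit both were counted is not given in the sources used here, so the level of each copy is uncertain to that extent. The ratio of Ifit3b to Ifit3 FPKM was 0.664 ± 0.0122 (SD, n = 3) in untreated cells, 0.596 ± 0.153 with TGF-β1, 0.840 ± 0.0538 with M-MDSC supernatant and 0.900 ± 0.0555 with that of G-MDSCs. A sum of the copies does not depend on how shared reads were split, provided that each was counted once, which is not known. Counted together, the copies had 34.2 ± 7.31 CPM (counts scaled to the library total) in untreated cells, 4.23 ± 0.354 with TGF-β1, 114 ± 5.70 with M-MDSC supernatant and 48.7 ± 1.02 with that of G-MDSCs. Their sum was 2.34 times as high with M-MDSC as with G-MDSC supernatant.

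Ifit1, which recognises RNA without cap methylation, was the most abundant of the 5 IFIT genes in every group but TGF-β1 alone. It was at 26.5, 25.2 and 27.1 FPKM in untreated cells, at 3.86, 4.30 and 4.55 FPKM with TGF-β1, at 35.6, 38.8 and 37.5 FPKM with M-MDSC supernatant and at 23.5, 22.6 and 24.3 FPKM with G-MDSC supernatant. No 2 groups overlapped, but G-MDSC supernatant and untreated cells lay close, at 0.895 of the untreated mean. Ifit1 was therefore near its untreated level with G-MDSC supernatant and at 1.42 times that level with M-MDSC supernatant. Compared with TGF-β1 alone, it changed by 3.12 ± 0.07 on the log2 scale with M-MDSC and by 2.44 ± 0.07 with G-MDSC supernatant, and M-MDSC was 0.67 ± 0.06 above G-MDSC supernatant.

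Ifit2, an IFIT protein that can also promote cell death, moved least. It was at 14.6, 11.7 and 12.9 FPKM in untreated cells, at 6.32, 6.24 and 5.94 FPKM with TGF-β1, at 8.84, 9.84 and 9.31 FPKM with M-MDSC supernatant and at 8.38, 8.25 and 9.41 FPKM with G-MDSC supernatant. Both supernatant groups lay above TGF-β1 alone and below untreated cells in every library, and they overlapped each other. The log2 fold change was 0.57 ± 0.08 with M-MDSC and 0.47 ± 0.08 with G-MDSC supernatant against TGF-β1 alone, and 0.11 ± 0.08 between the supernatants. Ifit2 was the single tested gene of the 5 that stayed below its untreated level with M-MDSC supernatant, at 0.714 of the untreated mean.

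Ifit1bl1, an Ifit1-like copy, was barely detected. It had 26 to 34 counts per library in untreated cells, 6 to 16 with TGF-β1, 11 to 39 with M-MDSC supernatant and 12 to 27 with G-MDSC supernatant. TGF-β1 alone was below untreated cells in every library, and the other groups overlapped. In a fit without the filter, its log2 fold change was 1.23 ± 0.55 with M-MDSC and 0.90 ± 0.55 with G-MDSC supernatant against TGF-β1 alone.

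With TGF-β1 alone, all 6 genes were lower than in untreated cells in every library, with log2 fold changes from -1.03 ± 0.08 for Ifit2 to -3.05 ± 0.18 for Ifit3b. The values for the others were -2.57 ± 0.07 for Ifit1, -2.89 ± 0.15 for Ifit3, -1.95 ± 0.20 for Ifi44 (-0.99 by limma on log2(FPKM + 1), a scale that understates changes of low genes) and -1.34 ± 0.55 for Ifit1bl1. Over all 12016 genes tested, 30.0% were lower in every library of that comparison. With M-MDSC supernatant, 5 of the 6 were above TGF-β1 alone in every library, where 13.4% of all genes tested were, and with G-MDSC supernatant 5 of the 6, where 13.2% were. Between the supernatants, 4 of the 6 were higher with M-MDSC in every library, where 5.97% of all genes tested were. Since the genes were selected on these differences, nothing is read from those counts. The median log2 fold change of the 5 tested genes was -2.57 with TGF-β1, 4.50 with M-MDSC supernatant, 3.22 with G-MDSC supernatant and 0.71 between the supernatants. The medians over all genes tested were 0.000478, -0.0133, -0.0144 and 7.01e-05. Both supernatant comparisons share the libraries of TGF-β1 alone.

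**Figure D2:**
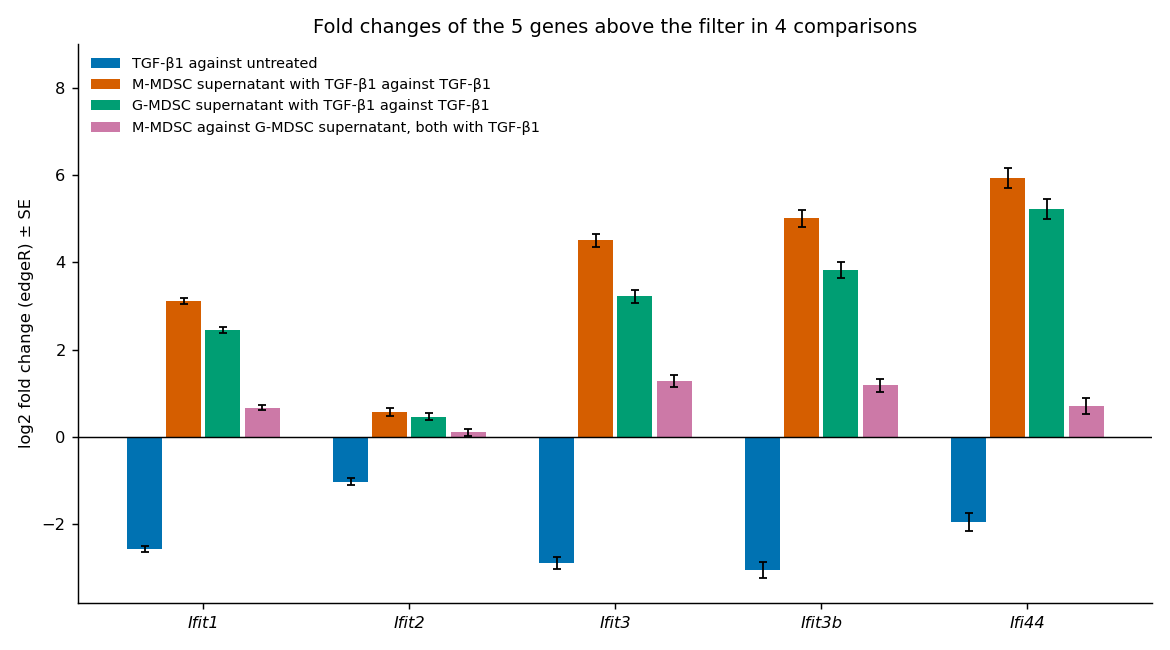
Log2 fold change from edgeR, with its SE, of the 5 genes above the filter in 4 comparisons. Each bar of TGF-β1 against untreated cells points down and each of the other 3 comparisons points up, from 0.11 for Ifit2 between the supernatants to 5.93 for Ifi44 with M-MDSC supernatant.

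Set against untreated cells, the 5 genes fell into different places. With M-MDSC supernatant, the log2 fold change from untreated cells was 3.98 ± 0.21 for Ifi44, 1.96 ± 0.16 for Ifit3b, 1.62 ± 0.14 for Ifit3, 0.54 ± 0.06 for Ifit1 and -0.45 ± 0.08 for Ifit2. With G-MDSC supernatant it was 3.27 ± 0.20 for Ifi44, 0.78 ± 0.16 for Ifit3b, 0.34 ± 0.13 for Ifit3, -0.13 ± 0.06 for Ifit1 and -0.56 ± 0.08 for Ifit2. The order of the 5 genes was the same with both supernatants.

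**Figure D3:**
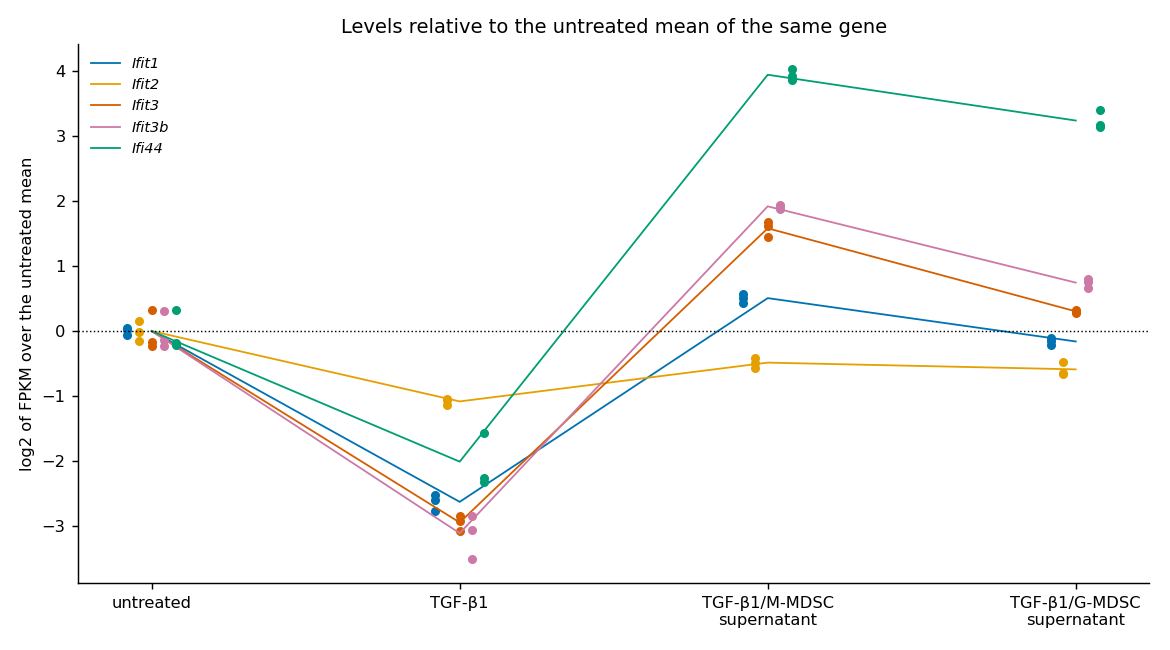
Log2 of FPKM over the untreated mean of the same gene, with a point for each library and lines through the group means. With the supernatants, Ifi44 ends at 15.4 and 9.47 times the untreated mean, whereas Ifit2 ends at 0.714 and 0.664 times that mean.

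The deposited FPKM of a gene go by the union of its transcripts, which for Ifi44 is longer than its main transcript. The length implied by the counts and FPKM was about 1.12 times the transcript for Ifit3 and Ifit3b. For Ifi44 it was 6840 bases, against 2910 bases for its main transcript and 6129 bases for the union of its 4 transcripts, or 1.12 times that union. Recomputed as CPM per kilobase of the main transcript of each gene, Ifi44 was at 4.64 ± 1.02 (SD, n = 3) in untreated cells, 1.15 ± 0.350 with TGF-β1, 71.5 ± 4.59 with M-MDSC supernatant and 43.9 ± 4.30 with that of G-MDSCs. That scale takes every Ifi44 count as a read of the main transcript, which was not tested. If so, Ifi44 was the most abundant of the 6 with either supernatant, ahead of Ifit1 at 41.6 ± 1.81 and 26.2 ± 0.931. In the deposited FPKM it came second after Ifit1. In untreated cells the order was Ifit1, Ifit2, Ifit3, Ifit3b, Ifi44 and Ifit1bl1 on both scales, and Ifit2 and Ifit3 overlapped. With TGF-β1 alone Ifit2 moved to the top, at 7.07 ± 0.231 per kilobase against 4.72 ± 0.388 for Ifit1, and Ifit3, Ifi44 and Ifit3b followed with overlap between neighbours. With either supernatant the order per kilobase of the main transcript was Ifi44, Ifit1, Ifit3, Ifit3b, Ifit2 and Ifit1bl1, with no overlap between neighbours. Fold changes within a gene do not depend on the length.

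The genes most like Ifi44 over the 12 libraries were Bst2 (tetherin), Oas1a (an oligoadenylate synthetase), Usp18 (which removes ISG15 and damps interferon signaling), Isg15 and Oas1g. Likeness was the root mean square difference of log2(FPKM + 1) less the untreated mean, which was 0.275 for Bst2, 0.314 for Oas1a, 0.391 for Usp18, 0.548 for Isg15 and 0.559 for Oas1g. Usp18, for instance, was at 5.75 FPKM in untreated cells, 1.08 with TGF-β1, 72.7 with M-MDSC and 49.3 with G-MDSC supernatant. The other IFIT genes were further from Ifi44, from 1.42 for Ifit3b to 2.53 for Ifit2. Ifit3 lay at 0.264 from Ifit3b and 0.573 from Ifit1. Outside the 6 genes, it was most like Dhx58 (0.552), which encodes the RNA sensor LGP2, and then Lgals9 (0.589), Ifitm3 (0.607), Ifi202b (0.613) and Oas1b (0.634). With a pseudocount of 0.1 in place of 1, 4 of the 5 genes remained for Ifi44 and 1 of the 5, Dhx58, for Ifit3.

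Of 16 other genes within 250 kb of the IFIT cluster, 4 reached the filter. Ifit1bl2, which is an IFIT-like gene between Ifit3b and Ifit1, fell by 2.68 ± 0.21 on the log2 scale with TGF-β1 and rose by 3.53 ± 0.22 with M-MDSC and 2.78 ± 0.21 with G-MDSC supernatant (edgeR, adjusted p = 3.6e-06, 2.03e-06 and 1.58e-05). It was at 1.01, 0.150, 1.79 and 1.06 FPKM on average in untreated cells, TGF-β1, M-MDSC and G-MDSC supernatant. The death receptor gene Fas fell with TGF-β1 (-1.36 ± 0.23, adjusted p = 0.00093) and passed the test with neither supernatant. The lysosomal lipase gene Lipa fell with TGF-β1 (-0.36 ± 0.05, adjusted p = 0.000204) and rose by 0.29 ± 0.05 with G-MDSC supernatant (adjusted p = 0.00538). Pank1, a coenzyme A synthesis gene, passed the test in none of these comparisons. None of the 10 genes within 250 kb of Ifi44 reached the filter.

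Genes of the interferon pathway outside the 6 were grouped into 4 lists of 90 genes, of which 88 were in the table and 70 were tested (edgeR, adjusted p under 0.05). With TGF-β1 alone, 59 of the 70 fell and 0 rose, where 17.9% of all genes tested fell and 16.1% rose. With M-MDSC supernatant 57 rose and 0 fell, against a background of 2.83% and 1.95%, and with G-MDSC supernatant 57 rose and 0 fell, against 3.10% and 2.46%. These lists were put together with earlier results of the data known, and their counts are a description. None of the 21 interferon genes themselves reached the filter, and 15 of them, Ifnb1 and Ifng among them, had no count in any library. The highest count of any of the 21 in a library was 37, for Ifnz.

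The subunits of the interferon receptors moved little. Ifnar1 was at 6.83, 5.80, 5.24 and 5.44 FPKM and Ifnar2 at 7.16, 6.32, 7.14 and 6.88 FPKM in untreated cells, TGF-β1, M-MDSC and G-MDSC supernatant, and neither passed the test in any of the 4 comparisons. The receptor subunits for interferon gamma were at 5.62, 5.40, 4.74 and 5.19 FPKM for Ifngr1, which passed no test, and at 3.78, 2.59, 2.99 and 3.40 FPKM for Ifngr2, which fell by 0.49 on the log2 scale with TGF-β1 (edgeR, adjusted p = 0.00248). Ifnlr1, for the receptor of interferon lambda, stayed below the filter, with at most 16 counts. Stat2 and Irf9, whose products act at the response element, did move. Stat2 was at 3.56, 1.76, 9.36 and 7.34 FPKM and Irf9 at 5.68, 2.48, 14.9 and 11.4 FPKM in the same order of groups. With TGF-β1, both fell, with log2 fold changes of -0.96 and -1.13 (edgeR, adjusted p = 7.41e-06 and 2.55e-06). They rose with M-MDSC supernatant by 2.39 and 2.56 (adjusted p = 2.23e-08 and 1.93e-08). The G-MDSC supernatant raised them by 2.04 and 2.17 (adjusted p = 1.04e-07 and 8.87e-08).

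In the list of receptors and signaling genes, 9 of 16 tested fell with TGF-β1 and 6 rose with each supernatant. The largest changes were those of Usp18 (-2.35, then 6.04 and 5.48 on the log2 scale with M-MDSC and G-MDSC supernatant) and the interferon regulatory factor Irf7 (-1.80, 4.53 and 3.79). Irf1, a factor of the interferon gamma response, fell by 1.20 with TGF-β1 and did not pass the test with either supernatant. Of 9 sensors of foreign nucleic acid, 8 fell with TGF-β1 and 7 rose with each supernatant. The largest were Zbp1 (-2.08, 4.71 and 4.30), Dhx58 (-2.18, 3.76 and 3.17), Ddx58, the gene for RIG-I (-1.42, 3.32 and 2.97), and Tlr3 (-1.26, 2.29 and 1.79). RIG-I and the product of Dhx58 sense RNA in the cytoplasm, as the IFIT proteins do, and Tlr3 senses it in endosomes. Of 31 other antiviral genes, 28 fell with TGF-β1 and 30 rose with each supernatant. Mx2 changed by -3.36, 6.60 and 5.76, Phf11d by -2.97, 5.43 and 4.63, Xaf1 by -2.15, 4.93 and 4.43 and Trim30a by -2.15, 4.65 and 4.0. The protein of Mx2 is a GTPase that blocks viruses. Cmpk2 (-3.30) and Rsad2 (-2.93), the gene for viperin, were among the 4 that fell most with TGF-β1. All 14 tested genes of guanylate-binding proteins, immunity-related GTPases and antigen presentation fell with TGF-β1 and rose with each supernatant. They were led by Iigp1 (-6.02, 6.73 and 5.54), which had 0 to 12 counts per library with TGF-β1 alone. Both families of GTPases act on the membranes around invading microbes. Gbp3 rose by 5.31 and 4.59, Gbp7 by 4.55 and 3.90, Igtp by 4.54 and 3.86, and Irgm2 by 4.15 and 4.06 on the log2 scale. Gbp7, Gbp9 and Cxcl10 fell with TGF-β1, at -2.90, -2.83 and -2.65. The change of Ifi44 with M-MDSC supernatant, 5.93 ± 0.23, lay within the range of these genes. Iigp1 (6.73 ± 0.53), Mx2 (6.60 ± 0.47) and Usp18 (6.04 ± 0.22) had larger values, that of Usp18 within the SE of Ifi44. Mx2 was at a mean of 0.0727 FPKM with TGF-β1 alone.

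**Figure D4:**
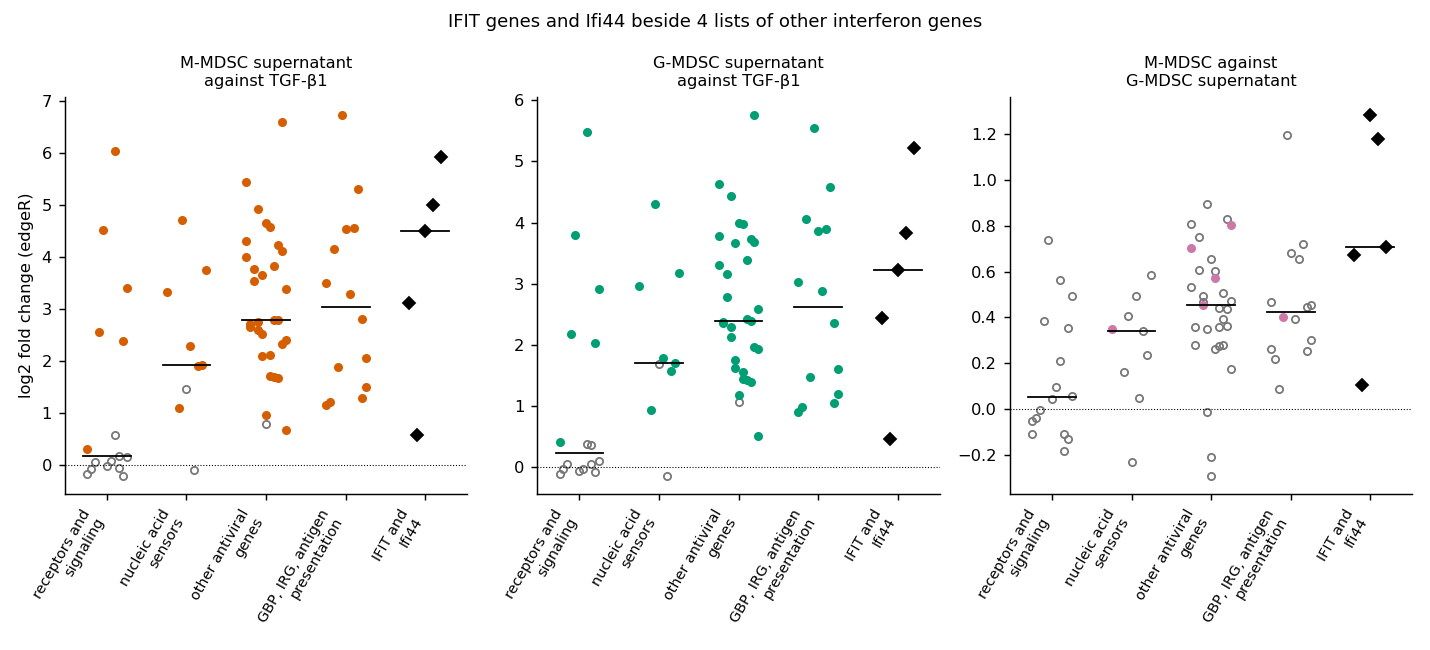
Log2 fold changes from edgeR of the 70 tested genes of 4 interferon lists, with bars at the medians. Black diamonds are the 5 genes above the filter, Ifi44 and all IFIT genes but Ifit1bl1. Filled points passed the test, which was not applied to the diamonds, and the 3 panels have different vertical scales.

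Between the supernatants, 6 of the 70 other interferon genes were higher with M-MDSC and 0 with G-MDSC supernatant, where 0.0999% of all genes tested were higher and 0.0250% lower. These were Ddx58 (0.35 on the log2 scale, adjusted p = 0.0204), Isg15 (0.70, adjusted p = 0.046), Cmpk2 (0.80, adjusted p = 0.0325), Parp12 (0.45, adjusted p = 0.00257), Tor3a (0.57, adjusted p = 0.0217) and Irgm1 (0.40, adjusted p = 0.00324), all by edgeR. The count depended on the test. DESeq2 called 32 of the 70, all higher with M-MDSC, where it called 0.643% of all genes it tested as higher and 0.368% as lower. With a replicate block, edgeR called 2 of the 70 as higher and 0 as lower, where 0.0499% and 0.0166% of all genes were called. By list, DESeq2 called 4 of 16 receptor and signaling genes, 4 of 9 sensors, 16 of 31 other antiviral genes and 8 of 14 genes of the guanylate-binding list. Among the receptor and signaling genes none was called by edgeR, and 5 had an unadjusted p under 0.05, all of them higher with M-MDSC. The median log2 fold change between the supernatants was 0.052 in that list, 0.343 in the sensors, 0.453 in the other antiviral genes and 0.424 in the guanylate-binding list, beside 0.71 in the 5 tested genes followed here. The count of 6 depended on single libraries too. It was 2 without M-MDSC supernatant replicate 1 or replicate 2 and without G-MDSC supernatant replicate 1 or replicate 2, 3 without G-MDSC supernatant replicate 3, 4 without M-MDSC supernatant replicate 3 and 13 without untreated replicate 3. The log2 differences of the IFIT genes and Ifi44, on which these genes were selected, are given as a description. When any 1 of the 12 libraries was left out, they ran from 1.23 to 1.34 for Ifit3, 1.14 to 1.21 for Ifit3b, 0.66 to 0.79 for Ifi44, 0.64 to 0.70 for Ifit1 and 0.067 to 0.17 for Ifit2.

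Transcripts of kidney tubules moved with the supernatants too. Of 14 kidney tubule markers 7 were tested, and 6 of these rose with each supernatant by edgeR. Leaving out Aqp1, which these MSCs express, the other 13 summed to 0.437 to 0.534 FPKM in untreated libraries and 0.519 to 0.654 FPKM with TGF-β1, where 9 or 10 of the 13 had no count. They summed to 34.2, 43.7 and 107 FPKM with M-MDSC supernatant and to 71.1, 82.5 and 82.4 FPKM with G-MDSC supernatant, and none of them was at 0. Kap, an androgen-regulated gene of the proximal tubule, had 0 counts in the 6 libraries without supernatant, 773, 537 and 4246 with M-MDSC and 2474, 3185 and 3010 with G-MDSC supernatant. Gpx3, a secreted glutathione peroxidase that tubules make, had 0 to 11 counts without supernatant and 2618 to 4518 with it. The other 4 that rose were Umod (uromodulin), Slc34a1 (a phosphate transporter), Miox and Napsa, which had 0 to 8 counts per library without supernatant and 86 to 1020 with it. Against TGF-β1 alone, the adjusted p of the 6 ran from 1.12e-06 for Gpx3 to 0.00833 for Kap with M-MDSC supernatant. Aqp1, the seventh, fell by 2.77 on the log2 scale with TGF-β1 and by a further 0.40 with G-MDSC supernatant (edgeR, adjusted p = 8.01e-09 and 0.0328). The summed FPKM of the IFIT genes and Ifi44 was 125, 137 and 134 with M-MDSC and 76.7, 71.8 and 74.6 with G-MDSC supernatant. Without M-MDSC supernatant replicate 3, Ifi44 was 5.94 and Ifit3 4.46 above TGF-β1 alone on the log2 scale.

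Of 18 myeloid markers 6 were tested, and Lyz2 (4.60 and 4.87 on the log2 scale, edgeR adjusted p = 0.0262 and 0.0183) and Cd14 (0.54 and 0.68, adjusted p = 0.00178 and 0.000338) rose with M-MDSC and G-MDSC supernatant. With TGF-β1, Ly6g, Ly6c2 and Cd14 fell (-4.55, -5.11 and -0.68 on the log2 scale) and Csf1r rose by 0.76 (edgeR, adjusted p = 0.00351, 0.000606, 4.84e-05 and 0.00602). Summed over the 18 markers, the FPKM was 28.9 to 30.9 in untreated cells, 15.7 to 17.2 with TGF-β1, 23.1 to 29.1 with M-MDSC and 29.6 to 31.2 with G-MDSC supernatant, most of it from Cd14. The 5 markers at 1 FPKM or more on average in a group without supernatant (Ly6g, Ly6c2, Csf1r, Cd14 and Cd68) were then left out, a choice made after seeing the data. The other 13 summed to 0.109 to 0.395 FPKM in untreated cells, 0.130 to 0.290 with TGF-β1, 1.19 to 3.85 with M-MDSC and 2.97 to 5.92 with G-MDSC supernatant. Every library with supernatant lay above every library without, which keeping only markers that are low without supernatant favours. Of the 13, 2 did so by themselves, Lyz2 and Laptm5, a lysosomal protein gene of blood cells, which had 12 to 61 counts with supernatant and 0 to 4 without. S100a9, a neutrophil and monocyte gene, had 0 counts without supernatant, 43, 12 and 23 with M-MDSC and 0, 0 and 160 with G-MDSC supernatant. Ptprc, the gene for CD45, had at most 26 counts in a library, and Mpo and Elane had none in any. The 13 together had at most 477 counts in a library, beside 9407 to 16465 counts of Ifi44 in the supernatant libraries. The part of RNA from other cells in the levels of the IFIT genes and Ifi44 was not tested.

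**Figure D5:**
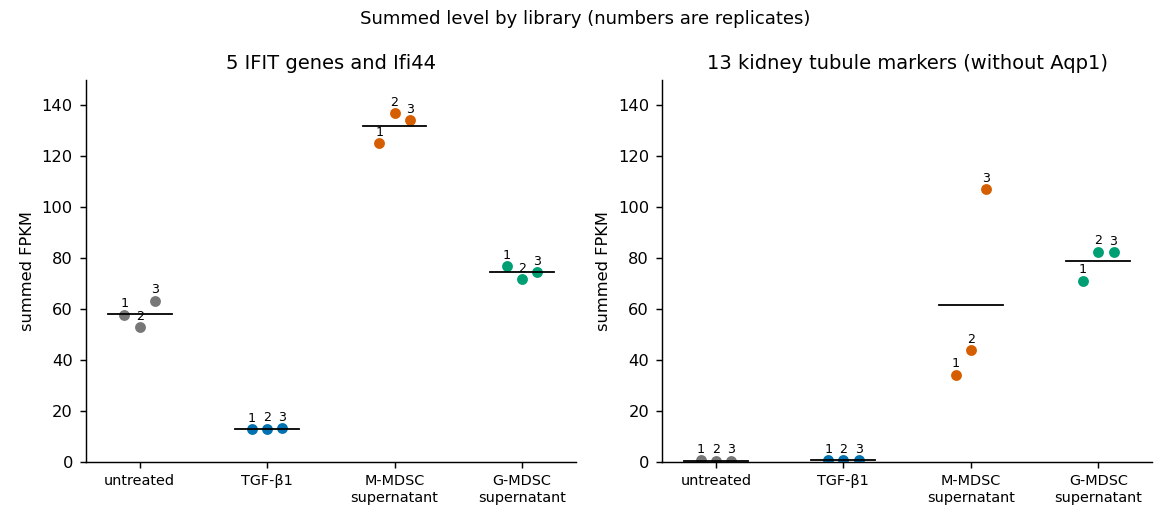
Summed FPKM by library of the 5 IFIT genes and Ifi44 (left) and of 13 kidney tubule markers (right), with replicate numbers at the points and bars at the means. With M-MDSC supernatant the kidney markers run from 34.2 to 107 and the IFIT genes and Ifi44 from 125 to 137.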

How the data were processed

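mRNA of 12 libraries, 3 for each of 4 groups of mouse MSCs, was sequenced as paired reads of 150 bases. The authors aligned reads to GRCm38 with HISAT2 (version 2.0.4 in the submitters' processing notes) and assembled transcripts with StringTie (version 1.3.4d there). The authors deposited a table with the counts of each gene and library, made with a counting tool that is not given in the sources used here, and the FPKM calculated from them. Strandedness is not given either, so antisense reads may be included. Of the counts from 1 to 12, 44.3% were 4, 8 or 12, so counts divided by 4 were tried as an alternative. All value columns belonged to these libraries.

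A gene was tested when 3 or more libraries reached an FPKM of 1, which held for 12016 genes. They were fitted with edgeR 4.0.16 in R 4.3.3 as 1 model of the 4 groups with TMM scaling, and two-sided p-values from its quasi-likelihood test were adjusted over them after Benjamini and Hochberg. The SE is the log2 fold change over the root of F. Ifit1bl1 was taken from a fit without the filter. The test was checked on simulated data. The 6 genes, the lists and the comparisons were chosen with earlier results of these data known, and the 6 genes were not tested. No pair of libraries of a group held the same values, since the mean chi-square over genes was 61.9 to 85.3 for the 12 pairs within groups.

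Genes named outside the 6 are up to 4 called genes with the largest change per list and comparison, receptor subunits, Stat2 and Irf9, the 5 genes most like Ifi44 and Ifit3, tested neighbours and called markers of other cells, less a single item that is not reported here. Irf1, Ifnb1, Ifng, Ifnz, Ifnlr1 and the markers below the filter were named after their values were seen. Alternatives covered scaling, filters, DESeq2 1.42.0, limma 3.58.1, fitting only the groups compared, blocking by replicate number and leaving out each library. Python 3.11.15 and pandas 2.3.3 handled the tables. Protein sequences were not used here.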

Additional observations from a re-analysis of the deposited data

How the results depend on the processing

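Over all alternatives, no fold change of the 5 tested genes and no count of other interferon genes reversed. The limma fit on log2(FPKM + 1), whose pseudocount understates the change of low genes, gave smaller medians over the 5 genes, of -2.10 with TGF-β1, 3.75 with M-MDSC and 2.54 with G-MDSC supernatant. In that fit Ifi44 was at -0.99 with TGF-β1 in place of -1.95, Ifit3 was at 3.75 and 2.54, and Ifi44 at 4.40 and 3.73, with M-MDSC and G-MDSC supernatant against TGF-β1 alone. By the study's fold rule (above 2 or below 0.5 with an unadjusted p under 0.05), 39 of the other interferon genes fell with TGF-β1 in place of 59. The count of 6 calls in favour of M-MDSC over G-MDSC supernatant was 32 by DESeq2, 18 with only the groups compared and 18 by limma on log2(FPKM + 1). By the fold rule it was 1, Iigp1 (1.19 on the log2 scale, edgeR unadjusted p = 0.0106), which was not among the 6. The cause of these shifts was not tested. When 1 library was left out, that count ran from 2 to 13. With a replicate block it was 2, and the block moved no other count by over 1.5 times. Libraries with the same replicate number did not deviate together, as the mean correlation of their residuals was -0.00384 over 18 pairs, so the number was not treated as a pairing. Counts divided by 4, which was tried because low counts pile up at multiples of 4, gave 8. Per kilobase of the main transcript, an alternative chosen after seeing the data, Ifi44 had 71.5 and not 30.5 with M-MDSC supernatant. That value takes all of its counts as reads of the main transcript. The core was on the given strand in 0 of the 6 genes and in 2.06% of all genes with a window. With 3 libraries a group, small differences such as that of Ifit2 between the supernatants were not resolved.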
